A study of Mus musculus with 6 samples.

Results

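The mouse mitochondrial chromosome carries 37 genes, and all 37 were among the 46452 genes with deposited expression values for hearts of 10-day-old mice. They were taken by their chromosome in the authors' table, and comprised 13 protein genes, 2 rRNA genes and 22 tRNA genes. By strand, 28 lay on the plus strand and 9 on the minus strand (ND6 and 8 tRNA genes), as the table writes it. Coordinates and strand of all 37 equalled the GRCm39 annotation of the chromosome, which is 16299 bases long.

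The 6 libraries were made from whole hearts, 3 from Nat10 flox/flox mice (homozygous for loxP-flanked alleles of the RNA acetyltransferase gene Nat10) and 3 from mice named Nat10-CKO, a conditional knockout. The labels call the 3 per group independent biological replicates and give neither the strain, the sex, the Cre driver nor the deleted exons. The libraries were directional and made from RNA kept on poly-T beads, with paired reads of 150 bases. Levels are given as FPKM, which divides the fragments of a gene by its length in kilobases and by a size factor of the library.

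The mitochondrial chromosome encodes core subunits of respiratory complexes I, III and IV and of the ATP synthase (complex V), together with the rRNAs and tRNAs that translate them inside the organelle. Both of its strands are transcribed into long precursors that are cut largely at the tRNAs between the other genes, and most of the messenger RNAs then receive a short poly(A) tail. Heart muscle is rich in mitochondria, and transcripts of this chromosome are among the most abundant in heart RNA.

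Several features of the chromosome bear on how its reads are counted, and the sequences below show them. Neighbouring genes overlap at 3 places between protein genes by more than 1 base: ATP8 with ATP6, ND4L with ND4, and ND5 with ND6 on the opposite strand. The plus strand of GRCm39 across each overlap is printed 5′ to 3′ with the shared bases in capitals; they number 43, 7 and 14 bases. The positions are chrM:7907-7989, chrM:10147-10193 and chrM:13532-13585.
ATP8 and ATP6: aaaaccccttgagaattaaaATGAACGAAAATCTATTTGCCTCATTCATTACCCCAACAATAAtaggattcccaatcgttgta
ND4L and ND4: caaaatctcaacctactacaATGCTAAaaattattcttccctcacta
ND5 and ND6: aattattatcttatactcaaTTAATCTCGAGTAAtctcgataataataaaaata
In the first pair the start of ATP6 lies inside ATP8, and in the second the start of ND4 lies inside ND4L; each pair is carried by a shared messenger RNA. How the authors' counting treated a read that spans both genes of such a pair is a setting not given in the sources used here.

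The messages of COX3, ND4 and CYTB end in a lone T, and the tail supplies the A bases that complete the stop codon. These are the 3 protein genes whose length is not a multiple of 3. Their last bases are printed with that T in capitals, from chrM:9367-9390, chrM:11521-11544 and chrM:15265-15288, all on the plus strand.
COX3: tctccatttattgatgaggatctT
ND4: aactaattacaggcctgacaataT
CYTB: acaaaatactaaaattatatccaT

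Every mitochondrial tRNA gene (59 to 75 bases) was shorter than 1 read, and 1 of the 22 held reads. That gene was TrnP (gene ID 17739), the proline tRNA and the last gene before the control region, on the minus strand at chrM:15356-15422. Its sequence is printed on its own strand with the anticodon in capitals.
TrnP: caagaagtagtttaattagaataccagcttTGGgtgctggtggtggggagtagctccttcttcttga
The stretch from the end of TrnP to the end of the linear reference is 877 bases and holds no annotated gene. The largest other gap beside a tRNA gene, not counting the point where the circle is opened next to TrnF, is the 32 bases between TrnN and TrnC.

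Reads per gene were recovered from the deposited values, since FPKM times gene length came in whole steps of 1 read (100% of values, within 0.01 read). Reads in genes numbered 31155521 to 38051266 per library. Nat10 itself (gene ID 98956) went against its label, at 3.75, 4.18 and 4.71 FPKM in Nat10 flox/flox samples and 8.28, 8.66 and 10.2 FPKM in samples labelled Nat10-CKO. Its log2 difference was 0.94 ± 0.12 (SE, n = 3 per group; limma adjusted p = 0.00142), so every direction below refers to the labels. Exons and cells that keep an intact allele are not separated in such gene-level values. Summed over 5 cardiomyocyte markers, the level was 14646 to 17868 FPKM in Nat10 flox/flox samples and 9019 to 15539 FPKM in samples labelled Nat10-CKO, lowest in replicate 1. The 3 endothelial markers summed to 178 to 219 against 104 to 106 FPKM, the 3 smooth muscle and pericyte markers to 145 to 181 against 87.9 to 97.0 FPKM, the 3 fibroblast markers to 212 to 239 against 254 to 352 FPKM, and the 3 erythroid markers to 645 to 1654 against 397 to 515 FPKM. The 3 macrophage markers overlapped (78.0 to 115 against 77.5 to 89.2 FPKM), and the liver and lung markers each summed to at most 0.891 FPKM. Sums need not hold for each marker. The lowest fibroblast marker overlapped between groups (4.12 to 5.32 against 3.82 to 6.71 FPKM). So did the lowest smooth muscle and pericyte marker (4.89 to 5.70 against 3.14 to 5.02 FPKM), but not the lowest endothelial or erythroid marker. In a principal component analysis 2 libraries stood apart from their groups, Nat10 flox/flox replicate 1 on the second component and Nat10-CKO replicate 1 on the third. In the first of these Tubb3, a tubulin of neurons, was at 154 FPKM against 0.454 to 12.4 FPKM in the other 5 libraries. The part of this in the results was not tested.

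The share of reads in genes that came from the mitochondrial chromosome was about 9 percentage points lower in samples labelled Nat10-CKO. It was 16.6%, 17.7% and 18.3% in Nat10 flox/flox samples and 7.56%, 8.18% and 9.26% in those labelled Nat10-CKO. Reads not assigned to a gene are not part of this total. The groups did not overlap, with means of 17.5 ± 0.910% and 8.33 ± 0.859% (SD, n = 3 per group) and a difference of -9.20 percentage points. The two-sided exact permutation p was 0.1, the smallest that 3 against 3 libraries can give. In reads, the chromosome held 5511118 to 6728836 per Nat10 flox/flox library and 2664355 to 3319285 per library labelled Nat10-CKO. In a whole heart, fewer cells of a type, fewer mitochondria per cell and less RNA per mitochondrion cannot be told apart, and the part of the marker differences above in this result was not tested.

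By class, the summed level of the 13 protein genes was 132156 ± 13636 FPKM in Nat10 flox/flox samples and 61868 ± 7836 FPKM in those labelled Nat10-CKO, 2.14-fold lower. The 2 rRNA genes summed to 3810 ± 326 and 2790 ± 1578 FPKM. By the annotated strand of the gene, the plus strand genes summed to 128069 and 61572 FPKM (2.08-fold) and the minus strand genes to 9250 and 3939 FPKM (2.35-fold). Whether the reads were counted by strand is not given. Protein genes took 93.5% to 97.2% of mitochondrial reads in each library.

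All 16 genes with reads passed the filter of a mean of at least 1 FPKM, and all 16 had a log2 difference below 0. Of these 16, 12 were called lower and 0 higher in a limma fit over all genes (adjusted p under 0.05), against 16.0% of the 11996 tested genes called lower and 40.5% called in either direction. The 12 were 11 protein genes and TrnP, and their groups did not overlap, which held in the same direction for 24.4% of tested genes. The median log2 difference was -1.16 over the 16 genes and -1.25 over the 13 protein genes, against 0.03 over all tested genes. With no filter on low values the fit called 4 (COX2, COX3, ATP6 and ND3), where 6.63% of 27977 genes were called lower. In it the log2 differences were the same and the standard errors of abundant genes larger, for COX1 3.29 in place of 0.22. ATP8, ND4L, mt-Rnr1 and mt-Rnr2 did not pass. The count was also 12 without both libraries that stood apart, where 16.5% of all genes were called lower.

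**Figure D1:**
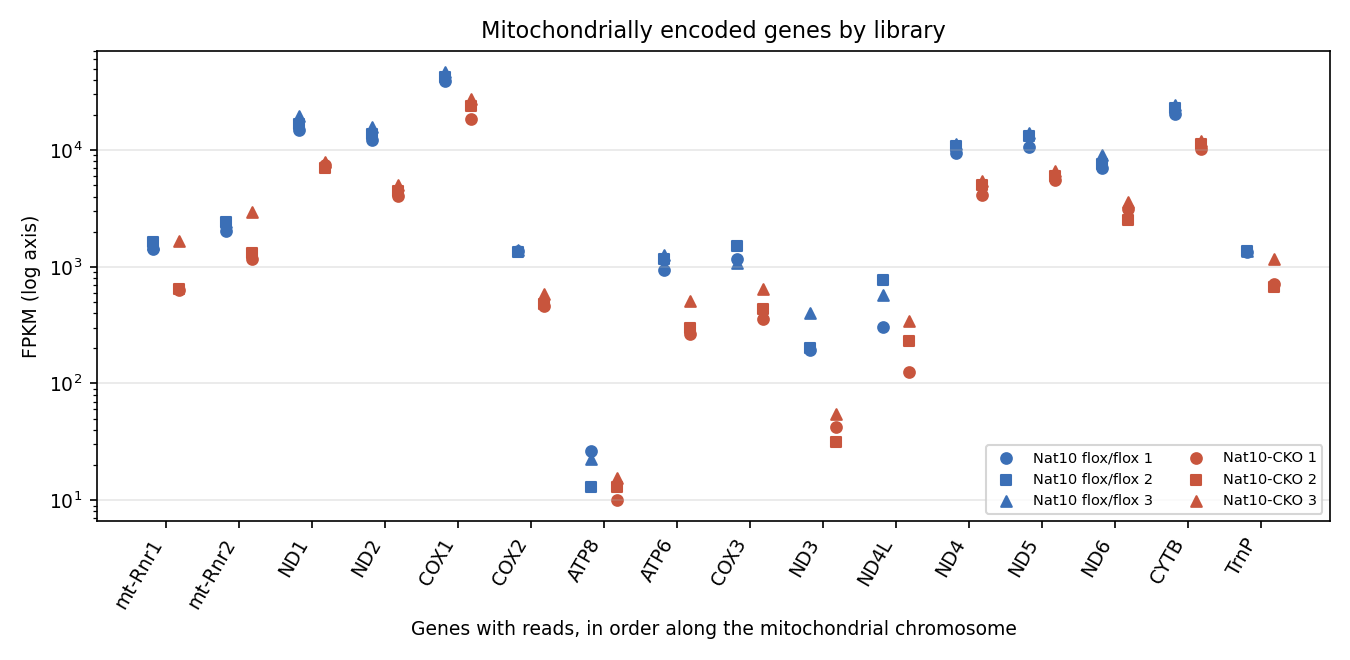
FPKM of the 16 mitochondrial genes with reads (y axis, log scale) in order along the chromosome (x axis), with each point a library and colour giving the group. COX1 is the highest gene in all 6 libraries, and the samples labelled Nat10-CKO lie below the others for 11 of the 13 protein genes.

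The 7 complex I genes encode the hydrophobic subunits of the NADH dehydrogenase, the entry point for electrons from NADH, and 6 of the 7 were called lower. ND1 (gene ID 17716, chrM:2751-3707) stood at 15007, 16835 and 19539 FPKM in Nat10 flox/flox samples and at 7385, 7022 and 7866 FPKM in those labelled Nat10-CKO. Every library of the second group was below every library of the first, a 2.31-fold difference of means. ND2 (gene ID 17717, chrM:3914-4951), which encodes a proton-pumping subunit, stood at 12178, 13805 and 15680 FPKM and at 4080, 4479 and 4973 FPKM. Its means of 13888 ± 1753 and 4511 ± 447 FPKM differed 3.08-fold (log2 difference -1.62 ± 0.18 SE, limma adjusted p = 0.000972), and its rank among all genes of a library was 4 in each Nat10 flox/flox library and 8 or 9 in the others.

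ND3 (gene ID 17718, chrM:9459-9806), a small subunit at the joint of the membrane and matrix arms, had the lowest log2 difference of the 16 genes. It was at 193, 200.1 and 405 FPKM in Nat10 flox/flox samples and at 42.1, 31.8 and 54.7 FPKM in those labelled Nat10-CKO. The groups were far apart although Nat10 flox/flox replicate 3 was well above its 2 replicates. The ratio of means was 6.21 (4.58 without that library), and the log2 difference was -2.55 ± 0.33 (SE; limma adjusted p = 0.00164). Its rank among all genes went from between 116 and 249 to between 1065 and 1786.

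ND4 (gene ID 17719, chrM:10167-11544) and ND5 (gene ID 17721, chrM:11742-13565) encode the other proton-pumping subunits of the membrane arm. ND4 was at 9473, 10826 and 11353 FPKM and at 4086, 5016 and 5432 FPKM, and ND5 at 10585, 13209 and 14112 FPKM and at 5503, 5979 and 6631 FPKM. Neither gene's groups overlapped, with ratios of means of 2.18 and 2.09. ND4L (gene ID 17720, chrM:9877-10173), on the same message as ND4, was at 304, 765 and 572 FPKM and at 125, 232 and 340 FPKM. Its groups overlapped and it was not called (log2 difference -1.25 ± 0.46 SE, limma adjusted p = 0.0686). It passed without Nat10 flox/flox replicate 1 (0.0334), without Nat10-CKO replicate 3 (0.0438), without both libraries that stood apart (0.0113), and when libraries were scaled to reads outside the mitochondrial chromosome (0.0342) or to total reads (0.0478).

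ND6 (gene ID 17722, chrM:13552-14070) is the one protein gene on the minus strand. It was at 7079, 7557 and 9056 FPKM in Nat10 flox/flox samples and at 3137, 2520 and 3601 FPKM in those labelled Nat10-CKO. The means of 7897 ± 1031 and 3086 ± 542 FPKM differed 2.56-fold, with no overlap (log2 difference -1.36 ± 0.20 SE, limma adjusted p = 0.00267). On its own strand ND6 is 28.1% G and 5.97% C, while the other 12 protein genes are 5.88% to 16.1% G and 22.1% to 30.0% C. The ND6 gene shares 14 bases with ND5 on the other strand. Whether the authors' counting used the strand is a setting not given in the sources used here. Reads of ND6 and antisense reads of the plus strand transcript therefore cannot be told apart.

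CYTB (gene ID 17711, chrM:14145-15288) encodes cytochrome b, the one complex III subunit made inside the organelle. It was at 20508, 22949 and 24469 FPKM and at 10201, 11282 and 11941 FPKM, with narrow spread in both groups. The ratio of means was 2.03, and the log2 difference was -1.02 ± 0.18 (SE; limma adjusted p = 0.00510). Scaling by quantiles brought its log2 difference to -0.12 (adjusted p = 0.471), since that method gives each rank the same value and CYTB ranked second in 5 of the 6 libraries.

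Complex IV, cytochrome c oxidase, reduces oxygen, and COX1, COX2 and COX3 form its catalytic core. COX1 (gene ID 17708, chrM:5328-6872) had the highest FPKM of all genes in all 6 libraries. It was at 39408, 42573 and 46552 FPKM in Nat10 flox/flox samples and at 18576, 23699 and 27291 FPKM in those labelled Nat10-CKO. The 1.85-fold difference of means was the lowest among the 11 protein genes called, and its groups did not overlap (log2 difference -0.90 ± 0.22 SE, limma adjusted p = 0.0180). COX1 was not called once any of the 3 Nat10 flox/flox samples was left out (adjusted p = 0.0990, 0.0816 and 0.0796 for replicates 1, 2 and 3), nor without Nat10-CKO replicate 2 (0.0639). Quantile scaling removes any difference in COX1 and in ND5 by construction, because each had the same rank in every library.

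COX2 (gene ID 17709, chrM:7013-7696) had the least spread of the protein genes in Nat10 flox/flox samples, at 1373, 1343 and 1380 FPKM, and was at 466, 484 and 585 FPKM in those labelled Nat10-CKO. The ratio of means was 2.67, and the log2 difference of -1.42 ± 0.14 (SE) had the smallest adjusted p of the 16 genes (0.000687, limma). COX3 (gene ID 17710, chrM:8607-9390) was at 1170, 1509 and 1080 FPKM and at 354, 434 and 643 FPKM, without overlap and with a ratio of means of 2.62.

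The 2 mitochondrial genes of the ATP synthase encode ATP6, which forms the proton path, and ATP8, a small membrane subunit. ATP6 (gene ID 17705, chrM:7927-8607) was at 936, 1156 and 1270 FPKM and at 264, 297 and 513 FPKM, a 3.13-fold difference of means (3.99-fold without Nat10-CKO replicate 3) with no overlap. ATP8 (gene ID 17706, chrM:7766-7969) was at 26.2, 12.9 and 22.6 FPKM and at 10.1, 12.99 and 15.4 FPKM, and its groups overlapped. At 204 bases ATP8 is the shortest protein gene, and it ranked between 1789 and 4610 among all genes. It was not called (log2 difference -0.60 ± 0.28 SE, limma adjusted p = 0.125; 0.0242 without Nat10 flox/flox replicate 2). ATP6 and ATP8 share a message. The level of ATP6 was 35.7 to 89.9 times that of ATP8 in Nat10 flox/flox samples and 22.9 to 33.2 times in those labelled Nat10-CKO. This ratio rests on 83 to 218 reads of ATP8 per library in the first group and 76 to 107 in the second. ATP6 held 6631 to 30735 reads per library. The part of gene length and of the overlap of the 2 genes in the ratio was not tested.

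The rRNA genes encode the small (mt-Rnr1) and large (mt-Rnr2) ribosomal RNA of the organelle, and their comparison turned on 1 library. mt-Rnr1 (gene ID 17724, chrM:70-1024) was at 1407, 1614 and 1556 FPKM in Nat10 flox/flox samples and at 630.1, 646 and 1663 FPKM in those labelled Nat10-CKO. mt-Rnr2 (gene ID 17725, chrM:1094-2675) was at 2030, 2425 and 2398 FPKM and at 1164, 1320 and 2946 FPKM. For both, Nat10-CKO replicate 3 was above every other library, and the other 2 of its group were below every Nat10 flox/flox library.

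Neither rRNA gene passed, with log2 differences of -0.79 ± 0.38 (SE; limma adjusted p = 0.138) for mt-Rnr1 and -0.46 ± 0.35 (0.334) for mt-Rnr2. Without Nat10-CKO replicate 3 both were called lower, at -1.25 (adjusted p = 0.00249) and -0.88 (0.00947). Within the chromosome, the rRNA genes took 2.94%, 3.09% and 2.79% of mitochondrial reads in Nat10 flox/flox samples and 3.38%, 3.23% and 6.40% in those labelled Nat10-CKO. The difference was 1.40 percentage points (exact permutation p = 0.1, two-sided, n = 3 per group), and 0.364 points without Nat10-CKO replicate 3 (exact p = 0.2). The RNA was selected by its tail, so these values are levels of what the selection kept.

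The level of mt-Rnr2 over mt-Rnr1, genes that are neighbours on 1 precursor with the valine tRNA gene between them, was 1.44, 1.502 and 1.54 in Nat10 flox/flox samples and 1.85, 2.05 and 1.77 in those labelled Nat10-CKO. The groups did not overlap, and Nat10-CKO replicate 3 was the lowest of its group in this ratio.

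**Figure D2:**
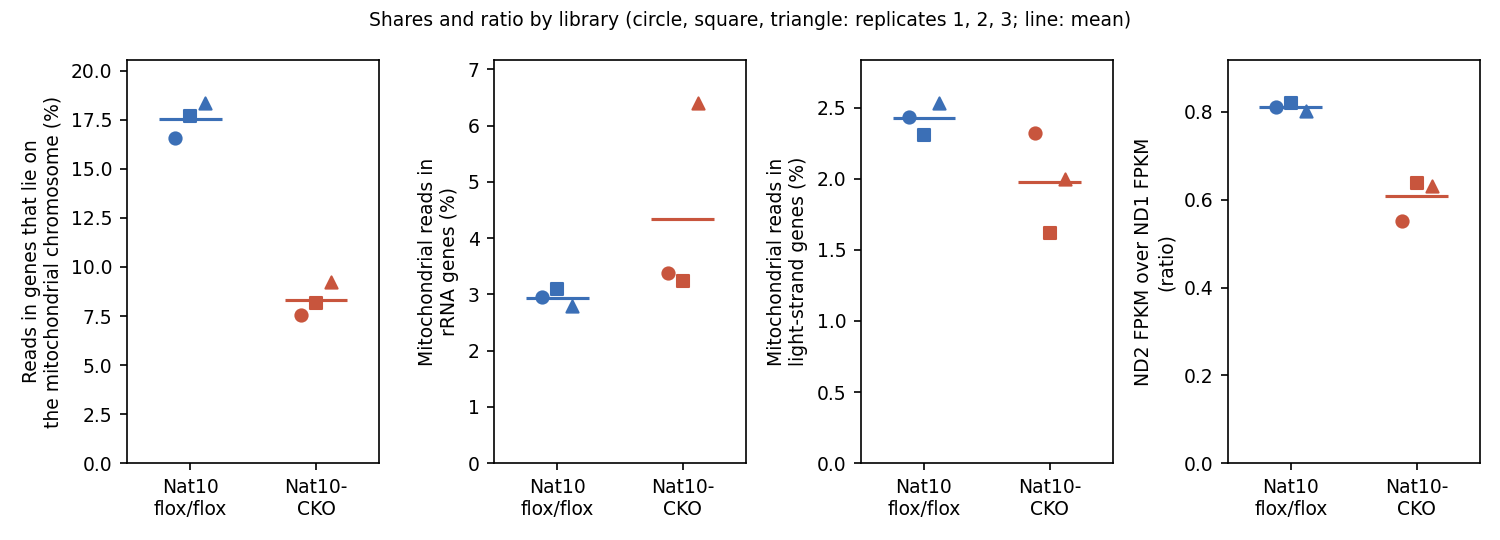
Share of reads in genes that lie on the mitochondrial chromosome, and share of mitochondrial reads in rRNA genes and in minus strand genes (percent). The last panel gives the level of ND2 over ND1. Y axes start at 0, and each point is a library, by group. Marker shape gives the replicate and the line the mean; Nat10-CKO replicate 3 is the high point of the rRNA panel, at 6.40%.

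TrnP was at 1345, 1358 and 1356 FPKM in Nat10 flox/flox samples and at 712, 673 and 1173 FPKM in those labelled Nat10-CKO. These levels rest on 2881 to 3669 reads in the first group and 1567 to 2671 in the second. The groups did not overlap, and Nat10-CKO replicate 3 was again the highest of its group. TrnP was called lower (log2 difference -0.71 ± 0.23 SE, limma adjusted p = 0.0468), but was not called once Nat10 flox/flox replicate 1, 2 or 3 was left out (0.109, 0.124 and 0.118), nor without Nat10-CKO replicate 1 or 2 (0.0858 and 0.147), nor without both libraries that stood apart (0.127).

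The other 21 tRNA genes were listed at 0 in every library, on both strands: 14 on the plus strand and 7 on the minus strand. For a gene of 67 bases, 3 reads would be 1.10 to 1.41 FPKM, so a count of 0 allows at most about that level in each library, and this limit covers counting error only. Of the 400 nuclear tRNA genes in the table, 37 held reads, with a highest value of 4.37 FPKM. Of all 4567 genes shorter than a read, 732 held reads. How a fragment that covers a tRNA gene and its neighbours was assigned is a step not given in the sources used here, and the part of read length, of tail selection and of assignment in these values was not tested.

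Genes annotated on the minus strand (light strand) were compared with the rest of the chromosome by their share of mitochondrial reads. Whether the authors' counting used the strand is not given, so this share cannot be read as the balance of transcription between the strands. It was 2.43%, 2.31% and 2.53% in Nat10 flox/flox samples and 2.32%, 1.62% and 1.99% in those labelled Nat10-CKO. The difference of -0.447 percentage points was accompanied by overlap between the groups (exact permutation p = 0.2, two-sided, n = 3 per group), and almost all of this share was ND6. Without tRNA genes the difference was -0.461 points and the groups did not overlap, by a margin of 2.2545% to 2.2537% (exact permutation p = 0.1). The ratio of ND6 to its neighbour ND5 was 0.669, 0.572 and 0.642 against 0.570, 0.422 and 0.543, without overlap by a margin of 0.572 to 0.570. The same limit applies to this ratio.

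To ask which genes moved apart from the rest of the chromosome, every library was rescaled to the same mitochondrial total and the fit was repeated. In that fit 4 of the 16 genes were called lower and 0 higher, against 2.20% of the 12066 genes then tested called lower and 73.3% called higher. The background is not like the level comparison, since the rescaling raised the median of all tested genes to a log2 difference of 0.89. The 4 genes were ND3 (-1.53 ± 0.28 SE, limma adjusted p = 0.00189), ATP6 (-0.66 ± 0.17, 0.0105), ND2 (-0.58 ± 0.09, 0.00110) and COX2 (-0.39 ± 0.13, 0.0248). ND3, ATP6 and ND2 were also called with each library left out in turn. COX2 was not called without Nat10 flox/flox replicate 1 or 2 and without Nat10-CKO replicate 2.

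CYTB, ND5 and ND4 stayed near the mitochondrial total, at 0.01, -0.02 and -0.09. COX1 was at 0.14 ± 0.08 (limma adjusted p = 0.177), ND6 at -0.33 ± 0.15 (0.0785), mt-Rnr2 at 0.58 ± 0.25 (0.0686) and TrnP at 0.32 ± 0.17 (0.121). Without Nat10-CKO replicate 1 the count was 8. ND1 (-0.27) and ND6 (-0.45) joined the lower calls, and COX1 (0.18) and mt-Rnr2 (0.72) were called higher. In that fit 2.32% of all genes were called lower and 72.7% higher. Without both libraries that stood apart the count was also 8, with ATP8 (0.69) higher in place of mt-Rnr2. The shares of all genes were then 2.16% lower and 76.7% higher.

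**Figure D3:**
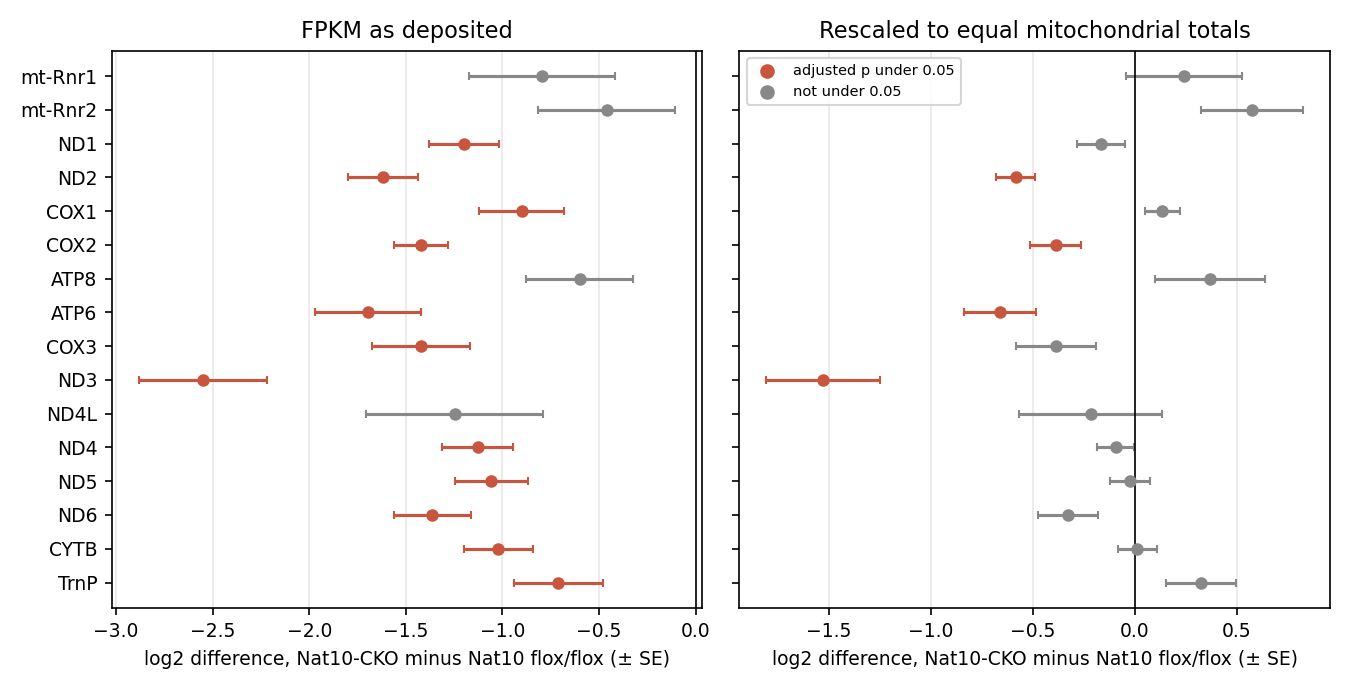
Log2 difference (x axis, Nat10-CKO minus Nat10 flox/flox, ± SE) of each of the 16 genes with reads (y axis, in chromosome order), for FPKM as deposited (left) and after rescaling to equal mitochondrial totals (right). On the left all 16 lie below 0 and 12 are called; on the right 4 are called, with ND3 farthest from 0.

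ND2 and ND1 are separated on the chromosome by 3 tRNA genes and lie on the same precursor. The level of ND2 over that of ND1 was 0.812, 0.820 and 0.803 in Nat10 flox/flox samples and 0.552, 0.638 and 0.632 in those labelled Nat10-CKO. The ratio was steady within the first group and lower in all 3 libraries of the second. COX1 over COX2 was 28.7, 31.7 and 33.7 against 39.9, 48.9 and 46.7, higher in all 3. ND5 over CYTB, by contrast, covered 0.516 to 0.577 and 0.530 to 0.555, and the groups overlapped. COX1 took 37.8% to 39.4% of mitochondrial reads in Nat10 flox/flox samples and 39.7% to 43.7% in those labelled Nat10-CKO.

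The protein genes fell into 2 ranges of level, and the low range coincided with the part of the chromosome that has a near-identical copy in the nucleus. Bases 6390 to 11042 of the mitochondrial chromosome aligned to chr1:24650616-24655269 (GRCm39, minus strand of chromosome 1) at 99.936% identity over 4654 aligned bases, with 2 substitutions and 1 gap. The next match, on chromosome 2, had 97.362% identity over mitochondrial bases 4441 to 7699. Of the 150-base windows of the mitochondrial chromosome, 4329 of 16150 had an identical nuclear copy, 4209 of them in the copy on chromosome 1.

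Within genes, every window of COX2, ATP8, ATP6, COX3 and ND4L had an identical nuclear copy, as did 98.5% of windows in ND3. The share was 59.2% in ND4, 23.6% in COX1 and 0% in ND1, ND2, ND5, ND6, CYTB and both rRNA genes. The 6 genes above 90% had Nat10 flox/flox means of 20.6 to 1365 FPKM, and the other 7 protein genes 7897 to 42844 FPKM. Across the 13 protein genes Spearman's rho between the copied share and the mean level was -0.76, given as a description, since the genes share libraries and precursor and differ in length. How reads that match 2 places were counted is a setting not given in the sources used here, and its part in the levels of the copied genes was not tested.

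**Figure D4:**
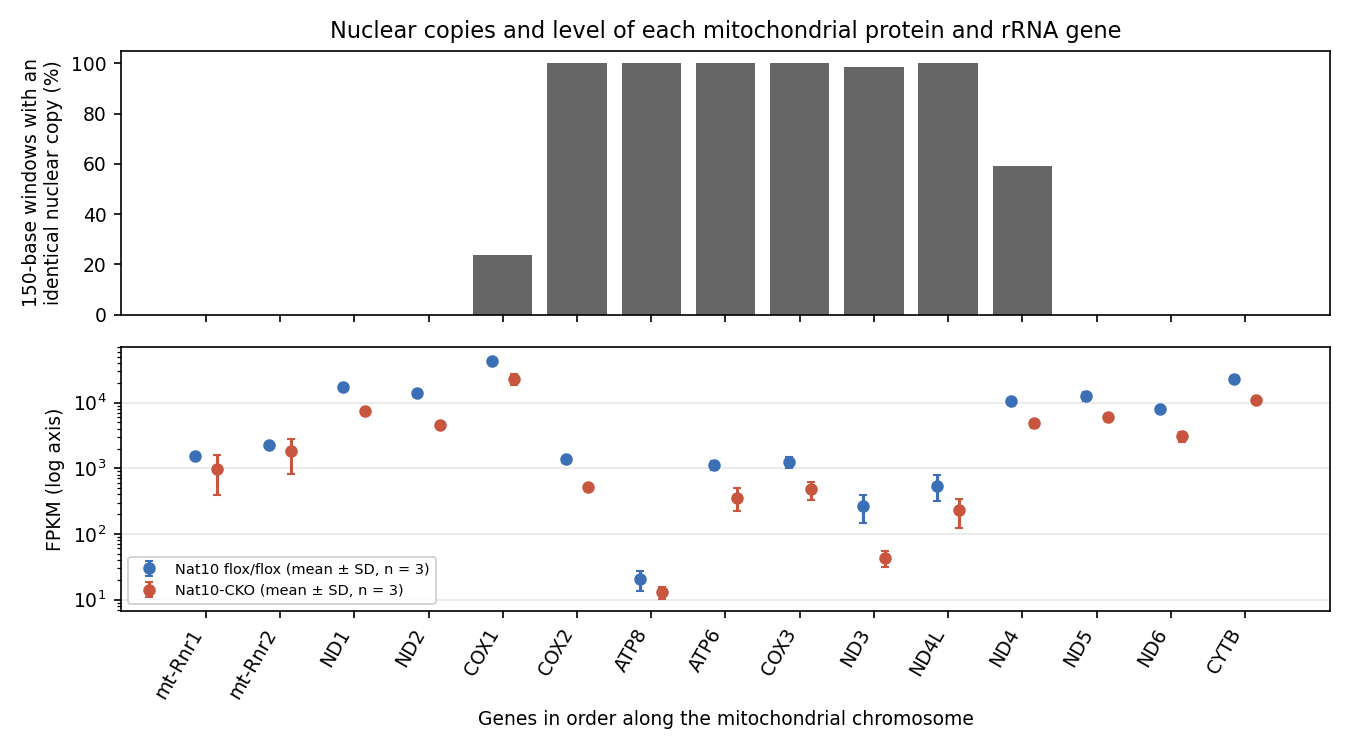
Upper panel, percent of 150-base windows of each protein and rRNA gene with an identical copy in the nuclear genome. Lower panel, mean FPKM ± SD of the same genes in each group (log scale), in chromosome order. The 6 genes above 90% have Nat10 flox/flox means of 20.6 to 1365 FPKM.

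The copy differs from the mitochondrial chromosome inside ND3 and TrnR and at 1 position in COX1 next to the edge of the match. These are differences between the reference sequences, and the ND3 and TrnR sites are shown. None lies in COX2, ATP8, ATP6, COX3 or ND4L, so no letter separates reads of those genes from the copy. The labels give no strain, so which letters the mitochondrial chromosome of these mice carries is not known. In ND3 the change is T9461C, counted along the mitochondrial chromosome with the mitochondrial base first, and the base is in capitals in chrM:9441-9481 and in chr1:24652178-24652218 (minus strand).
Mitochondrial ND3: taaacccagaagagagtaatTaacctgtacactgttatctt
Chromosome 1 copy: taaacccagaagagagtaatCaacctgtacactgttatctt
In TrnR the copy has an extra base in a run of A, in capitals, in chr1:24651818-24651858 (minus strand) against chrM:9801-9840.
Mitochondrial TrnR: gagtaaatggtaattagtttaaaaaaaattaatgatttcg
Chromosome 1 copy: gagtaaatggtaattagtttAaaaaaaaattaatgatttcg

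One gene model of the authors' table, without a gene symbol, covers the chromosome 1 copy (chr1:24650296-24655271, plus strand, 4585 bases of gene length). It stood at 343, 493 and 583 FPKM in Nat10 flox/flox samples and 171, 183 and 239 FPKM in those labelled Nat10-CKO, and the groups did not overlap. Its means of 473 ± 121 and 198 ± 36.0 FPKM differed 2.39-fold (log2 difference -1.24 ± 0.23 SE, limma adjusted p = 0.00666). After rescaling to equal mitochondrial totals its difference was -0.20 ± 0.16 (adjusted p = 0.262). It held 28935 to 94948 reads per library.

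Genes inside and outside the copied stretch both moved. Among the 6 genes above 90%, 4 were called lower, with log2 differences of -2.55 to -0.60 and a median of -1.42. Among the other 7, all 7 were called, with -1.62 to -0.90 and a median of -1.13. Of all tested genes 16.0% were called lower. ND4 (59.2% of windows) and COX1 (23.6%), copied in part, are among the other 7. In the rescaled fit, ND3, ATP6 and COX2 of the 4 called genes lie in the copied stretch, and ND2 lies outside it.

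The other genes of the pathway are nuclear, and 84 of 90 listed factors of mitochondrial DNA and RNA were tested. Of the 84, 29 were called higher and 7 lower, a median log2 difference of 0.24, where 24.4% of all tested genes were called higher and 16.0% lower. When libraries were scaled to reads outside the mitochondrial chromosome, which moved the median of all genes from 0.03 to -0.12, the split was 23 higher and 16 lower, where 17.5% of all genes in that fit were called higher and 24.7% lower. Without Nat10 flox/flox replicate 2 or 3 the lower calls numbered 2 (9.74% and 9.69% of all genes), and without both libraries that stood apart the split was 35 higher and 7 lower (25.1% and 16.5% of all genes).

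Among 16 genes of mitochondrial DNA maintenance, 4 were higher and 2 lower, near the 24.4% and 16.0% of all tested genes. Atad3a, a membrane ATPase of the nucleoid, rose from 21.4 ± 1.57 to 74.2 ± 9.31 FPKM (SD, n = 3 per group; limma adjusted p = 0.000320), and Top3a, a topoisomerase that separates daughter chromosomes, from 1.59 ± 0.108 to 3.35 ± 0.284 FPKM. Dguok, which salvages purine deoxynucleosides for the organelle, fell from 9.99 ± 0.672 to 5.20 ± 0.463 FPKM, and Mpv17, an inner membrane protein whose loss depletes mitochondrial DNA, from 33.6 ± 2.15 to 18.5 ± 4.83 FPKM. With Nat10 flox/flox replicate 2 or 3 left out, Mpv17 was not called (limma adjusted p = 0.0517 and 0.0524).

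Of 7 transcription genes, 1 was higher and 1 lower, where 24.4% of all tested genes were called higher and 16.0% lower. Mterf4, which guides an rRNA methyltransferase to the large ribosomal subunit, rose from 6.50 ± 0.401 to 16.3 ± 4.23 FPKM (limma adjusted p = 0.00319). Mterf2 fell from 1.81 ± 0.135 to 0.754 ± 0.253 FPKM (0.0127; 0.0518 and 0.0509 with Nat10 flox/flox replicate 2 or 3 left out). The polymerase gene Polrmt was at 11.2 ± 0.937 and 11.4 ± 2.50 FPKM (0.974), and Tfam, which packages the chromosome and opens its promoters, at 8.78 ± 0.906 and 7.42 ± 1.19 FPKM (0.239); both are named for their role after their values were seen.

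RNA processing and stability genes were higher for 10 of 23 and lower for 1, against 24.4% and 16.0% of all tested genes. Elac2, the nuclease that cuts precursors at the 3′ end of tRNAs, rose from 9.48 ± 0.255 to 23.4 ± 0.685 FPKM (limma adjusted p = 0.000295). Pde12, which removes A bases from mitochondrial RNA ends, rose from 3.21 ± 0.404 to 10.3 ± 0.736 FPKM (0.000363). Lrpprc, which binds and stabilises mitochondrial messenger RNAs and is needed for their polyadenylation, fell from 46.9 ± 7.01 to 19.9 ± 10.2 FPKM (0.0401). Lrpprc missed it without Nat10 flox/flox replicate 1, 2 or 3 (0.0633, 0.105 and 0.113) and without Nat10-CKO replicate 2 (0.0553).

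Modification genes of mitochondrial rRNA and tRNA were higher for 13 of 25 and lower for 1, against 24.4% and 16.0% of all tested genes. When scaled to reads outside the mitochondrial chromosome the numbers were 10 and 5, against 17.5% and 24.7%. Trit1, which adds an isopentenyl group beside the anticodon of some tRNAs, rose from 3.28 ± 0.668 to 13.1 ± 1.43 FPKM (limma adjusted p = 0.000451), and the RNA methyltransferase gene Nsun2 from 13.4 ± 0.219 to 34.3 ± 4.87 FPKM (0.000594). Mettl15, which methylates the small ribosomal RNA, fell from 1.81 ± 0.408 to 0.745 ± 0.109 FPKM (0.0136; 0.0555 and 0.0520 with Nat10 flox/flox replicate 2 or 3 left out).

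Translation factor genes were lower for 2 of 13 and higher for 1, of which the lower share was near the 16.0% of all tested genes. When scaled to reads outside the mitochondrial chromosome the numbers were 5 lower and 0 higher, against 24.7% and 17.5% of all genes. Mtrf1l, a release factor, fell from 2.24 ± 0.0821 to 1.04 ± 0.288 FPKM (limma adjusted p = 0.0106). Taco1, an activator of COX1 translation, fell from 27.4 ± 3.84 to 14.0 ± 5.51 FPKM (0.0361), and Guf1, an elongation factor, rose from 4.37 ± 0.377 to 5.97 ± 0.559 FPKM (0.0304). With Nat10 flox/flox replicate 1, 2 or 3 left out, neither Taco1 nor Guf1 was called, with adjusted p of 0.0534, 0.0970 and 0.108 for Taco1 and 0.0958, 0.0558 and 0.0849 for Guf1. Taco1 also missed without Nat10-CKO replicate 2 (0.0621) and Guf1 without Nat10-CKO replicate 1 (0.0522) or 3 (0.0807) or both libraries that stood apart (0.108).

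The nuclear genes for subunits of the same 4 complexes were lower less steeply in the median than the mitochondrial genes: 32 of 77 were called lower and 0 higher, with a median log2 difference of -0.55 against -1.25 for the 13 mitochondrial protein genes. Of all tested genes 16.0% were called lower and 24.4% higher. The difference between the 2 sets was not tested. By complex, 16 of 37 nuclear genes and 6 of 7 mitochondrial genes of complex I were lower (medians -0.60 and -1.25). For complex III these were 4 of 9 and 1 of 1 (-0.57 and -1.02), for complex IV 5 of 14 and 3 of 3 (-0.44 and -1.42), and for complex V 7 of 17 and 1 of 2 (-0.49 and -1.15).

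Ndufb1 and Ndufc2, accessory subunits of complex I, fell from 40.3 to 15.5 FPKM and from 160 to 80.3 FPKM in the mean (limma adjusted p = 0.00312 and 0.00571). Uqcrfs1, the Rieske iron-sulfur protein of complex III, fell from 476 to 223 FPKM and Uqcr11 from 518 to 265 FPKM (0.0160 and 0.0232). With Nat10 flox/flox replicate 2 or 3 left out Uqcrfs1 was not called (0.0538 and 0.0571), nor was Uqcr11 with Nat10 flox/flox replicate 1, 2 or 3 (0.0649, 0.0570 and 0.0710) or Nat10-CKO replicate 2 (0.0527) left out. Ndufa4 and Cox6c of complex IV fell from 824 to 269 FPKM and from 861 to 425 FPKM (0.00487 and 0.0140), and Atp5g3 and Atp5j of complex V from 731 to 395 FPKM and from 88.8 to 44.8 FPKM (0.00619 and 0.0161; Atp5j 0.0569 with Nat10 flox/flox replicate 3 left out). The count of 32 depended on the libraries and the scaling. With Nat10 flox/flox replicate 1, 2 or 3 left out it was 14, 9 and 9, where 12.6%, 9.74% and 9.69% of all genes were called lower, so the last 2 counts were near the background. With Nat10-CKO replicate 2 or 3 left out it was 14 and 52 (11.5% and 14.7% of all genes), and when scaled to reads outside the mitochondrial chromosome it was 61 (24.7% of all genes).

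**Figure D5:**
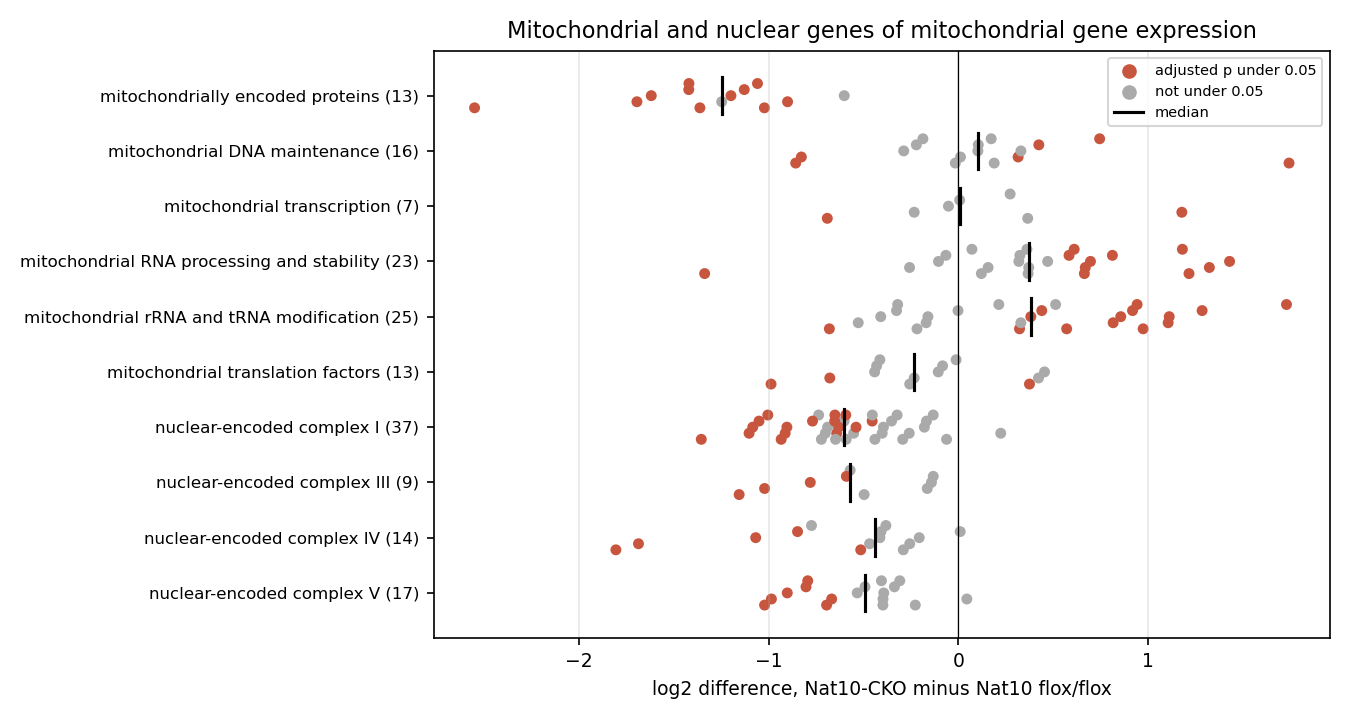
Log2 difference (x axis, Nat10-CKO minus Nat10 flox/flox) of each tested gene, with 1 row for the 13 mitochondrial protein genes and 1 for each list of nuclear factors or subunits (number of genes in brackets). The mitochondrial protein genes lie between -2.55 and -0.60, and the nuclear subunits have list medians of -0.60 to -0.44.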

How the data were processed

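RNA of 6 heart samples was sequenced as directional paired-end libraries. Per the series' design text, the authors aligned reads to GRCm39 with HISAT2 2.2.1 and counted them with featureCounts 2.0.6; CASAVA and DESeq2 1.42.0 appear in the submitters' processing notes. What the authors deposited is FPKM, with a column for each library. The deposited FPKM were already scaled by median-of-ratios size factors (their ratio to such factors was 1.0 in all 6 libraries).

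Groups were compared with limma 3.58.1 (R 4.3.3, trended eBayes, two-sided). The fit used log2(FPKM + 1) of every gene whose mean FPKM reached 1, with Benjamini-Hochberg adjustment over all of them and a threshold of 0.05. A log2 difference on this scale understates the change of low genes; folds are ratios of mean FPKM. Single values were compared by an exact permutation test over libraries. The script was tested on simulated data. Genes named are Nat10, all members with reads, and for each list up to 2 tested genes per direction with the smallest adjusted p; Polrmt and Tfam, outside this rule, were added after their values were seen. The members, the gene lists and the cell type markers were chosen with earlier results of these data known. One of the marker lists is reported only in part. Alternatives covered the pseudocount, filter, scaling, trend, voom on recovered reads, a replicate block and each library left out; leaving out both libraries that stood apart was added after the data were seen.

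The GRCm39 mitochondrial chromosome was compared with the nuclear genome with BLAST+ 2.17.0 (word size 28, identity of at least 80%), and sequences were read from the same genome with samtools 1.23.1. Plots were made in Python 3.11.15 with matplotlib 3.10.9.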

Additional observations from a re-analysis of the deposited data

How the results depend on the processing

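Across 17 alternatives to the level comparison, none of the 272 differences of the 16 genes reversed, although quantile scaling set COX1 and ND5 to no difference; 241 kept their side of the threshold, 22 lost a call and 9 gained one. The number of genes called was 12, between 10 and 15 with 1 library left out (9.69% to 16.2% of all genes called lower), and 4 with no filter (6.63%). Relative to the mitochondrial total it was 4, and between 3 and 8 with 1 library left out (1.54% to 2.32% of all genes lower, 62.8% to 75.4% higher). It was 8 without both libraries that stood apart (2.16% and 76.7%) and 1 with no filter (1.64% and 31.2%). Factors called numbered 36 of 84, a share near the 40.5% of all tested genes called in either direction. With 1 library left out they numbered between 24 and 44, where 9.69% to 16.2% of all genes were called lower and 17.7% to 25.8% higher. At a mean of at least 5 FPKM, where fewer genes are tested, 22 of 59 were called. Of all genes in that fit 16.0% were called lower and 31.9% higher. As a share of summed FPKM the mitochondrial difference was -14.5 percentage points and the minus strand difference -0.710. With 1 library left out, the differences in shares of reads ranged from -9.69 to -8.79 for the chromosome, 0.364 to 1.95 for rRNA genes and -0.618 to -0.267 for the minus strand. Relative differences that changed sign, with their lowest and highest values when 1 library was left out, were CYTB (-0.032 to 0.072), ND5 (-0.068 to 0.017, and 0.0063 when Nat10 flox/flox replicate 2 was the one left out), mt-Rnr1 (-0.11 to 0.46) and ND4L (-0.51 to 0.068); none of these 4 was called in any of them. CYTB was at -0.024 without both libraries that stood apart. The cause of these changes was not tested.

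The replicate numbers share only a name: deviations of same-numbered libraries correlated at 0.065, 0.037 and 0.105. With a replicate block 12 genes and 33 factors were called, where 14.4% of all genes were called lower and 22.2% higher. Relative to the mitochondrial total 4 genes were called with the block (2.13% of all genes lower, 75.4% higher). In the blocked level comparison TrnP missed the threshold (limma adjusted p = 0.0543) and ND4L passed it (0.0145). The 3 shares had the same differences (-9.20, 1.40 and -0.447 points), with an exact paired p of 0.25, the smallest that 3 pairs allow.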
